A study of Mus musculus with 16 samples.

Results

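The 10 glutathione S-transferase genes Gsta1, Gsta3, Gsta4, Gstm1, Gstm5, Gstm7, Gstp1, Gsto1, Gstt1 and Mgst1 were followed in single cells of mouse colon tumour organoids with and without the histone methyltransferase KMT9. They were found by symbol among the 31053 gene rows of the deposited matrices, and each symbol stood on 1 row. The tumours were raised with AOM/DSS, that is azoxymethane, a carcinogen, plus dextran sodium sulfate, which inflames the colon. The control group is KMT9wt/wt by genotype and minus TAM, the knockout group KMT9ko/ko and plus TAM. Both are at passage 14, and the names of both deposited matrices carry the same day, so the groups share that time label. The meaning of TAM and the way the alleles were removed were not given in the sources used here, nor was the number of tumours or animals behind the organoids. Each group is 1 library deposited as 8 records, so no value below has a replicate and no test was made. Every interval is an exact 95% interval for counting error alone.

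Glutathione S-transferases join the tripeptide glutathione to reactive compounds such as lipid aldehydes, epoxides and drugs, which makes these water-soluble and ready for export. The cytosolic enzymes fall into classes named by Greek letters, here alpha (Gsta), mu (Gstm), pi (Gstp), omega (Gsto) and theta (Gstt), while Mgst1 is a membrane enzyme of microsomes and mitochondria. In the gut epithelium they stand between dietary or bacterial toxins and the tissue, and several of them are classic targets of the transcription factor NRF2, which binds antioxidant response elements. Alpha class enzymes are a mark of absorptive cells in the small intestine, and pi class enzymes are often high in tumours.

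RefSeq promoters on GRCm38.p6, from 250 bases before to 50 bases after a start site, were at hand for 9 of the 10 genes, 12 sequences in all. Gsta4 had none. They are shown for Gsta1 and Gsta3, which differed in opposite directions between the libraries, and for Gstm5 and Gstm7. The latter varied together over cell clusters, as did Gstm1, whose promoters are not shown. Capitals mark matches to 5 motifs searched on both strands. These were the NRF2 antioxidant response element TGACNNNGC, AP-1 TGANTCA, CDX TTTATNG, the HNF1 core GTTAAT and HNF4 CAAAGTCCA, and no 2 matches below overlap. Gsta3 is read from the plus strand of chr1:21240335-21240634, Gsta1 from the plus strand of chr9:78230419-78230718, Gstm5 from the plus strand of chr3:107895604-107895903 and the second of the 2 Gstm7 promoters from the minus strand of chr3:107931565-107931864.
Gsta3: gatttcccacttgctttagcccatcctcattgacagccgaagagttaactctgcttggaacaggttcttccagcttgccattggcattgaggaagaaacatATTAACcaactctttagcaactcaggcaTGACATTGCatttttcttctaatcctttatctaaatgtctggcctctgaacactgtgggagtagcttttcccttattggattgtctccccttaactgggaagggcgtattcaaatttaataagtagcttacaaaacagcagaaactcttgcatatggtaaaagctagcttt
Gsta1: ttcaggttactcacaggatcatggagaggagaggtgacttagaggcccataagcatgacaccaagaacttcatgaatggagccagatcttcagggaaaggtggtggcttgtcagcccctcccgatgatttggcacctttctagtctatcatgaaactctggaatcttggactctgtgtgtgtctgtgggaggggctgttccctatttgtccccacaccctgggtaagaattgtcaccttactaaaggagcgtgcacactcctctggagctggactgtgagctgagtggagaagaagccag
Gstm5: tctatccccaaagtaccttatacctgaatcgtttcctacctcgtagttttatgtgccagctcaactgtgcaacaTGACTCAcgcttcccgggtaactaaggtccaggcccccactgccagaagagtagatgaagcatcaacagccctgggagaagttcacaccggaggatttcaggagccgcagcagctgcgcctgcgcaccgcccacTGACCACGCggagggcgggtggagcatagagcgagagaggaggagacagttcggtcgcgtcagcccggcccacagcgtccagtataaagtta
Gstm7: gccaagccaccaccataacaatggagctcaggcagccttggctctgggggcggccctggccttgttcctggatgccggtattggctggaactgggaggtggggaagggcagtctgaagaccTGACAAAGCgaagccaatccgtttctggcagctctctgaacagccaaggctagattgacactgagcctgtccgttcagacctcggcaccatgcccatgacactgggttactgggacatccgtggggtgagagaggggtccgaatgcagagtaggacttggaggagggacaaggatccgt

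The Gsta3 promoter held TGACATTGC at base -121 from its start site and the reverse of the HNF1 core, ATTAAC, at base -149. The Gsta1 promoter held none of the 5 motifs. Gstm5 had the AP-1 match TGACTCA at base -176 and the antioxidant response element TGACCACGC at base -42, and Gstm7 had the element TGACAAAGC at base -129. The antioxidant response element thus stood in 4 of the 12 promoters (Gsta3, Gstm5, Gstm7 and Mgst1), against 12.4% of all 32851 mouse promoters in the same table. AP-1 stood in the promoters of Gstm5 and Gstp1, against 7.81% of all, and the HNF1 core in that of Gsta3, against 7.10%. CDX (10.9% of all promoters) and HNF4 (0.475%) had no match in the 12. The first Gstm7 promoter and the promoters of Gstm1, which are not shown, held none of the 5 motifs. A match is a run of letters and not a measured binding site.

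Cells were kept from 1000 genes and 2000 UMIs upward, a UMI being the tag of 1 RNA molecule, with mitochondrial UMIs up to 20% and likely doublets removed. This left 2629 control cells with 68666384 UMIs and 1481 knockout cells with 37301715 UMIs, at medians of 24604 and 24184 UMIs per cell. N6amt1, which encodes the catalytic subunit KMT9alpha, was at 34.0 CPM (UMIs per 1000000 UMIs of the library) in control cells and 6.11 CPM in knockout cells, a log2 ratio of -2.48 (-2.68 to -2.28). The epithelial genes Epcam (899 and 952 CPM) and Krt8 (2945 and 3334 CPM) were high in both libraries. Of other cell types, 8 immune markers summed to 0.320 and 0.643 CPM, 7 fibroblast markers to 0.117 and 0.268 CPM and 6 endothelial markers to 10.5 and 20.2 CPM, and Ptprc, Col1a1 and Pecam1 had at most 19 UMIs in a library. The matrices shared 498 cell barcodes, and the copy with fewer UMIs had a median of 2.72% of the UMIs of the other. Among kept cells, 166 control cells and 325 knockout cells carried a shared barcode, of which 9 and 6 were the smaller copy. The main values of Gsta1, Gsta3 and Gstm7 and a few others are given with and without such cells. All other values include them, and some would change without them, as for Mgst3 (log2 ratio 0.20 with and 0.02 without).

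Summed over all kept cells, the family had nearly the same total in both libraries, while 3 members differed past 1.5-fold. Gsta1 and Gstm7 were higher and Gsta3 was lower in the knockout library. A gene counted as higher or lower from a ratio of 1.5-fold, provided that it reached 10 CPM in either library. Of the 9 members that reached this level, 2 were higher, against 8.12% of all 7910 such genes, and 1 was lower, against 10.7%. Gsta1 reached 10 CPM only in the knockout library, where it was higher, so its place in this count depends on the minimum. The median log2 ratio, knockout over control, was 0.13 over the 9 members and -0.06 over all 7910 genes. The 10 members together came to 1259 CPM in control cells and 1209 CPM in knockout cells, and Gsto1 and Gsta4 made up 62.8% and 62.7% of that sum. Each transcript yields 1 tag from its end whatever its length, so these levels are set side by side without division by length.

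**Figure D1:**
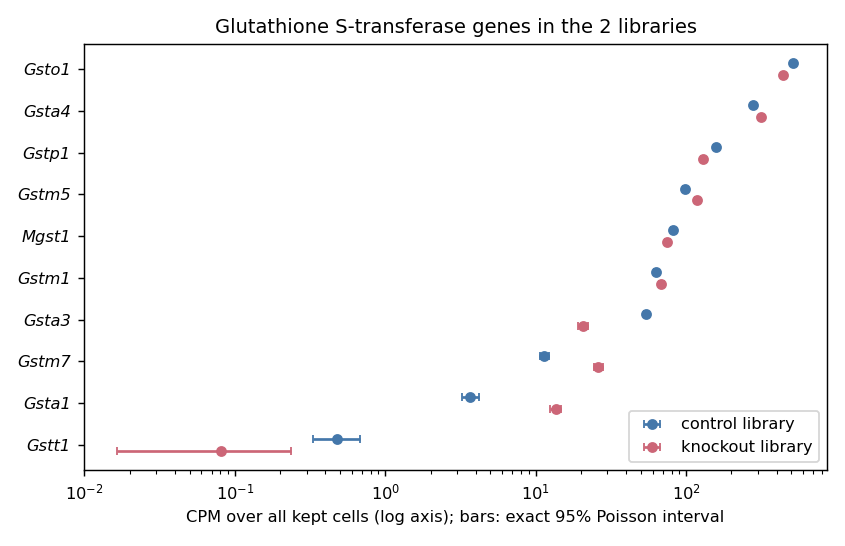
CPM of the 10 glutathione S-transferase genes (log axis) in the control and the knockout library, each point the sum over all kept cells and each bar its exact 95% Poisson interval. Gsta3 is lower, and Gstm7 and Gsta1 are higher, in the knockout library, while Gsto1 leads and Gstt1 is last in both.

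The omega and alpha class genes Gsto1 and Gsta4 led the family. Gsto1, whose enzyme reduces oxidized thiols and dehydroascorbate, was at 513 CPM in control cells (507 to 518) and 441 CPM in knockout cells (434 to 447), a log2 ratio of -0.22 (-0.25 to -0.19). Gsta4, the alpha class enzyme for 4-hydroxynonenal and other lipid aldehydes, was at 278 CPM (274 to 281) and 317 CPM (311 to 323), a log2 ratio of 0.19 (0.16 to 0.22). A Gsto1 UMI was counted in 95.7% of the control and 93.7% of the knockout cells, and a Gsta4 UMI in 91.9% and 89.5%. No cell type that lacks them was at hand, so the part of free RNA in these shares was not tested. With every cell thinned to 5000 UMIs, which kept 2487 control and 1387 knockout cells, the shares were 83.6% and 75.3% for Gsto1 and 66.3% and 67.6% for Gsta4. The libraries' counting intervals did not overlap for either gene, and both differences stayed under 1.5-fold.

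Gstp1, the pi class enzyme, followed at 158 CPM in control cells (155 to 161) and 129 CPM in knockout cells (125 to 133), a log2 ratio of -0.29 (-0.34 to -0.24). Of the windows of 50 bases in the last 400 bases of its transcripts, 78.3% also occur in transcripts of Gstp2 or the pseudogene Gstp-ps, so the split of counts among these copies is uncertain. Gstp2 itself was at 37.7 and 33.4 CPM. Mgst1 was at 81.3 and 74.8 CPM, a log2 ratio of -0.12 (-0.19 to -0.05), or -0.06 (-0.14 to 0.01) without cells of shared barcodes. These genes were lower in the knockout library by less than 1.5-fold.

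The 3 mu class members, whose enzymes handle epoxides and quinones, were on the higher side in the knockout library over all kept cells. Gstm7 alone was past 1.5-fold. Gstm5 was at 97.5 and 118 CPM, a log2 ratio of 0.28 (0.22 to 0.33), and Gstm1 at 62.6 and 68.5 CPM, a log2 ratio of 0.13 (0.06 to 0.20). With shared barcodes left out, Gstm1 was nearly level at 66.8 and 67.7 CPM (log2 0.02, -0.06 to 0.10). Gstm5 stayed higher (log2 0.24, 0.18 to 0.30). Gstm7 was at 11.4 CPM in control cells (10.6 to 12.2, 782 UMIs) and 26.1 CPM in knockout cells (24.5 to 27.8, 974 UMIs), 2.29-fold higher (interval of the log2 ratio 1.06 to 1.33). A Gstm7 UMI was found in 18.5% of the control and 30.6% of the knockout cells, and after thinning in 5.51% (4.64 to 6.48, Clopper-Pearson) and 9.95% (8.42 to 11.6). Without the cells of shared barcodes Gstm7 was at 12.3 and 27.0 CPM, 2.19-fold higher. Of the windows of 50 bases at the end of Gstm1 transcripts, 24.1% occur in Gstm3 or pseudogenes, against none for Gstm5 and Gstm7.

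Gsta3, an alpha class enzyme known in mice for conjugating aflatoxin epoxide, was lower in the knockout library. It was at 54.2 CPM in control cells (52.5 to 56.0, 3721 UMIs) and 20.7 CPM in knockout cells (19.2 to 22.2, 771 UMIs), 2.62-fold lower, a log2 ratio of -1.39 (-1.50 to -1.28). A Gsta3 UMI was found in 50.9% of the control (49.0 to 52.8) and 24.2% of the knockout cells (22.0 to 26.4), and after thinning in 19.5% (18.0 to 21.2) and 9.16% (7.69 to 10.8). Without the cells of shared barcodes it was at 53.4 and 22.3 CPM, 2.40-fold lower.

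Gsta1, the alpha class enzyme of absorptive gut and liver cells, was rare in both libraries and higher in the knockout library. It was at 3.68 CPM in control cells (3.24 to 4.17, 253 UMIs) and 13.6 CPM in knockout cells (12.4 to 14.8, 506 UMIs), 3.68-fold higher, a log2 ratio of 1.88 (1.66 to 2.10). A Gsta1 UMI was found in 3.54% of the control (2.86 to 4.32) and 5.67% of the knockout cells (4.55 to 6.97), and after thinning in 0.724% (0.429 to 1.14) and 2.74% (1.95 to 3.74). The 10 cells with the most Gsta1 UMIs held 60.5% of all Gsta1 UMIs of the control and 64.0% of those of the knockout library, with 41 and 80 UMIs in the highest cell. For Gsta3 the same shares were 5.46% and 13.5%. Cells of shared barcodes held 72.9% of the knockout and 20.6% of the control UMIs of Gsta1. Without them Gsta1 was at 3.27 and 5.03 CPM, 1.54-fold higher (log2 0.62, 0.30 to 0.94) and under 10 CPM in both libraries. With only the smaller copy of each shared barcode left out, it was at 3.67 and 13.6 CPM. Of the windows of 50 bases at the end of Gsta1 transcripts, 87.2% also occur in Gm3776, Gsta2 or Gm10639, its neighbours on chromosome 9, so counts may be split among these copies. Those 3 genes were at 1.05, 0.248 and 0.117 CPM in the control and 3.08, 0.643 and 0.268 CPM in the knockout library.

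Gstt1, a theta class enzyme that acts on halogenated methanes, was near the limit of detection. It had 33 UMIs in the control library (0.481 CPM) and 3 in the knockout library (0.0804 CPM), a log2 ratio of -2.58 with a wide interval (-4.93 to -0.91). Those UMIs came from 32 control and 3 knockout cells. Its class neighbours were lower as well, Gstt3 at 17.0 and 5.74 CPM (log2 -1.57, -1.79 to -1.36) and Gstt2, which was named after its values were seen, at 84 and 6 UMIs (1.22 and 0.161 CPM).

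**Figure D2:**
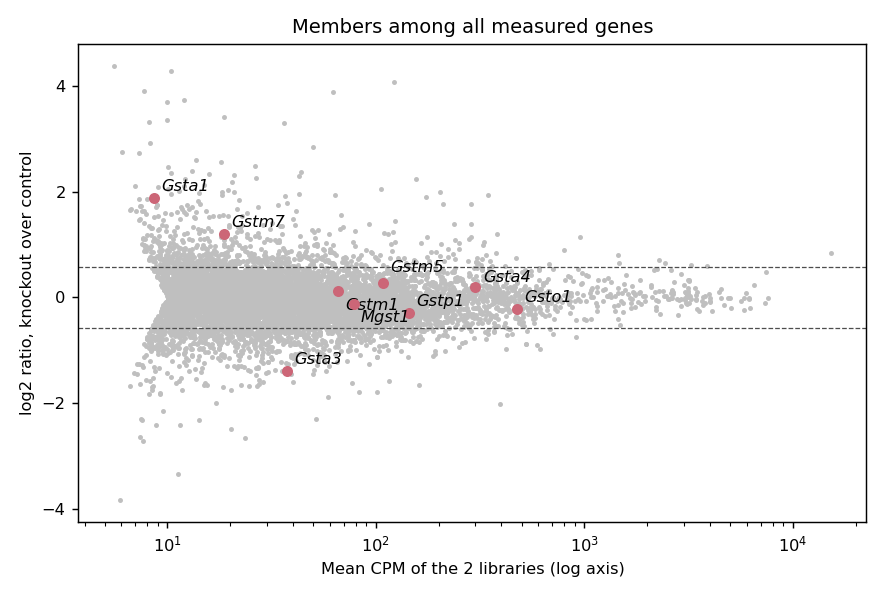
Log2 ratio of knockout over control against the mean CPM of the 2 libraries (log axis) for the 7910 genes that reached 10 CPM in either library (grey) and the 9 members among them (red). The dashed lines mark 1.5-fold, beyond which lie Gsta1 and Gstm7 above and Gsta3 below.

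The alpha members Gsta1 and Gsta4 and the 3 mu members lie in 2 gene groups and the other members apart, given here on the mm10 build as in GENCODE release M21. Gsta4 (chr9:78182774-78209349) and Gsta1 (chr9:78230656-78242684) lie close together on the plus strand of chromosome 9, whereas Gsta3 (chr1:21240589-21265661) is on the plus strand of chromosome 1. Gstm5 (chr3:107895821-107898686, plus strand), Gstm7 (chr3:107926334-107931817, minus strand) and Gstm1 (chr3:108012255-108017973, minus strand) share a stretch of chromosome 3. Gstp1 (chr19:4035407-4037985, minus strand) and Gsto1 (chr19:47854970-47864790, plus strand) are on chromosome 19, Gstt1 (chr10:75783813-75798584, minus strand) on chromosome 10 and Mgst1 (chr6:138140316-138156755, plus strand) on chromosome 6. All are protein-coding genes of 5 to 8 exons. A gene on the opposite strand overlaps Gsta3 (Gm28836), Gstm5 (4933431E20Rik) and Gsto1 (Cfap43), and whether counting used strand was not given in the sources used here.

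Cells were grouped into 12 clusters without any glutathione transferase gene, so that the members could be described across cell states they did not define. The clusters are called by their leading genes, and 2 of them by markers. These are the cycling-like cluster, led by Ube2c with 20 of 20 cycling markers 2-fold or more above the other cells, and the colonocyte-like cluster, led by Car1, Muc3 and Clca4a with 13 of 15 colonocyte markers. The Reg4 and Shh cluster (738 control and 23 knockout cells) and the Khdc1a and Isx cluster (801 and 31) were mostly control cells. The Cxcl14 and Plat cluster (215 and 384), the Sprr1a and Clu cluster (38 and 314) and the Pnliprp2 and Prss56 cluster (71 and 175) took larger shares of the knockout library. In sums over a library, fewer cells of a kind and less RNA per cell cannot be told apart, and with 1 library per group a cluster mostly of 1 library may be that library rather than a cell state. Clusters of 50 or more cells of a library were compared, 7 in each library.

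Gsta1 and Gsta3 differed in how they were spread over these clusters. In the control library Gsta3 was found in all 7, from 13.7 CPM in the Pnliprp2 and Prss56 cluster (8.34 to 21.1) to 77.7 CPM in the Khdc1a and Isx cluster (74.2 to 81.2), a 5.69-fold span. The Asprv1 and Spp1 cluster (52.8 CPM), the Reg4 and Shh cluster (46.0 CPM) and the cycling-like cells (45.4 CPM) lay between. In the knockout library it ran from 12.4 CPM in the Cxcl14 and Plat cluster (10.3 to 14.9) to 35.2 CPM in the Asprv1 and Spp1 cluster (30.3 to 40.5), a 2.83-fold span.

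Gsta1 was at or near 0 in most of the same clusters. Of the 7 control clusters only the Khdc1a and Isx cluster reached 1 CPM, at 4.70 CPM (3.88 to 5.64), with a UMI in 69 of its 801 cells. In the Reg4 and Shh cluster, by contrast, 2 of 738 control cells had a Gsta1 UMI, and in the knockout Cxcl14 and Plat cluster 1 of 384. In the knockout library the Sprr1a and Clu cluster was at 18.9 CPM, with a UMI in 43 of 314 cells. A cluster of low depth led by Lars2 and Hspa1b (median 3647 UMIs) was at 64.7 CPM (37.7 to 104) in the knockout library, from 17 UMIs in 5 of 64 cells, and at 0 UMIs in 148 control cells.

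Gsta1 was highest in the colonocyte-like cluster, which is described outside the minimum of 50 cells because it held only 4 control and 28 knockout cells. There it was at 388 CPM in control cells (295 to 501, 59 UMIs) and 316 CPM in knockout cells (281 to 355, 292 UMIs), and 4 of 4 and 23 of 28 cells had a UMI. The 2 intervals overlapped. Of the 59 control UMIs 41 came from 1 cell, at 1290 CPM, and the other 3 control cells, which carried a shared barcode, were at 150 CPM (88.7 to 237). Of the 28 knockout cells 22 carried a shared barcode, at 304 CPM (268 to 343), and the other 6 were at 522 CPM (347 to 754). Gsta3 had 0 UMIs in the 4 control cells and was at 27.1 CPM (17.5 to 40.0) in the 28 knockout cells, close to the 20.5 CPM of the rest of the knockout library. With this cluster left out Gsta1 was at 2.83 CPM in control cells and 5.88 CPM in knockout cells, a log2 ratio of 1.05.

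**Figure D3:**
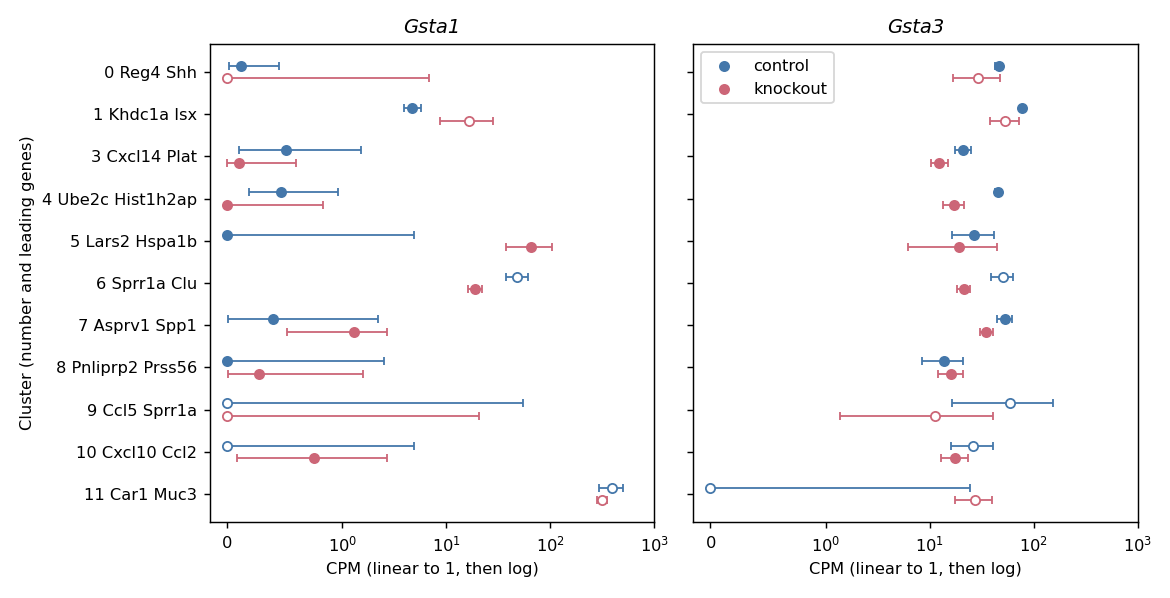
CPM of Gsta1 (left) and Gsta3 (right) in each cluster of 20 or more cells over both libraries, on an axis that is linear to 1 and then logarithmic, with exact 95% Poisson intervals and open points for fewer than 50 cells. Gsta1 peaks in the Car1 and Muc3 cluster in both libraries and lies at or near 0 in most others, while Gsta3 lies between 11.3 and 77.7 CPM everywhere except for 0 in the 4 control cells of that cluster.

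Gsta1 and Gsta3 were also followed without clusters, along the summed CPM of the 15 colonocyte markers of each cell. The bounds of 1000 and 5000 CPM were set after the distribution was seen. Gsta1 was at 2.38, 12.9 and 199 CPM in control cells under 1000, from 1000 to 5000 and at 5000 CPM or more (2495, 128 and 6 cells). In knockout cells it was at 4.69, 33.0 and 455 CPM over the same ranges (1358, 105 and 18 cells). A shared barcode was carried by 276, 36 and 13 of those knockout cells and by 155, 10 and 1 of the control cells. Without them Gsta1 was at 2.35, 6.98 and 260 CPM in control and 2.59, 30.4 and 899 CPM in knockout cells, the last from 5 cells each. Gsta1 thus went up with the marker sum in both libraries. Gsta3 was at 53.8, 59.5 and 85.8 CPM in control cells and at 20.3, 28.1 and 7.20 CPM in knockout cells. Without cells of shared barcodes Gsta3 was at 52.6, 64.3 and 105 CPM in control cells. In knockout cells it was then at 21.8, 30.4 and 32.1 CPM, the last from 1 UMI. In control cells Gsta3 thus also went up with the marker sum, though far less than Gsta1. It had 0 UMIs in the 4 control colonocyte-like cells. The 15 markers summed to 364 CPM over all control cells and 631 CPM over all knockout cells, with 13 of them at 1 CPM or more. On either side of the bound of 1000 CPM, 144 control and 58 knockout cells lay within 20% of it.

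UMIs of Gsta1 and Gsta3 were counted in the same and in different cells. Among control cells 71 had UMIs of both, 22 of Gsta1 alone, 1267 of Gsta3 alone and 1269 of neither. Among knockout cells the numbers were 38, 46, 320 and 1077. After thinning, Gsta3 was found in 7 of 18 control cells with Gsta1 (38.9%, 17.3 to 64.3) and in 19.4% of those without (17.9 to 21.0). In the knockout library it was found in 9 of 38 (23.7%, 11.4 to 40.2) and in 8.75% (7.29 to 10.4). The 2 intervals of a library overlapped in the control and not in the knockout library, and the part of free RNA in these shares was not tested. Over the 7 clusters of each library Pearson's r of log2(CPM + 10) between the genes was 0.66 in the control and 0.11 in the knockout library, a description over clusters that share a library and differ in depth. In the control, Gsta1 passed 1 CPM only in the Khdc1a and Isx cluster. In the knockout library it was highest in the low-depth Lars2 and Hspa1b cluster, from 17 UMIs in 5 cells.

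Genes whose pattern over the 7 control clusters was most like that of Gsta1, among 3020 genes with 50 or more CPM, were Ndufa4 and Cib1 (r = 0.96 each), Ifi35 (0.95), Cdkn2b (0.94), Car1 and Cox5b (0.91 each). This pattern is set by the Khdc1a and Isx cluster, the only one above 1 CPM. Car1, a carbonic anhydrase of colonocytes, was at 54.8 CPM in control cells and 258 CPM in knockout cells. Most like Gsta3 were Spr and Taf10 (0.97 each), Lgals3, Atp5g1 and Elf3 (0.96 each) and Eef1akmt1 (0.95). Spr, a reductase of tetrahydrobiopterin synthesis, was at 203 and 122 CPM and Elf3, an epithelial transcription factor, at 347 and 283 CPM.

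Within clusters, Gsta3 was lower in the knockout library in most cell states. In the cycling-like cells it was at 45.4 CPM in control cells and 17.2 CPM in knockout cells, a log2 ratio of -1.40 (-1.77 to -1.06). Without cells of shared barcodes it was at 44.4 and 20.6 CPM there (-1.11, -1.51 to -0.72). Of the 5 clusters with 50 or more cells of each library, 4 had a lower level in the knockout library, and in 3 the counting interval excluded equality. The other log2 ratios were -0.76 in the Cxcl14 and Plat cluster (-1.13 to -0.38), -0.59 in the Asprv1 and Spp1 cluster (-0.91 to -0.26), -0.49 in the Lars2 and Hspa1b cluster (-2.26 to 0.97) and 0.23 in the Pnliprp2 and Prss56 cluster (-0.53 to 1.04). In the Sprr1a and Clu cluster, with 38 control cells, Gsta3 was at 50.4 and 21.3 CPM. Gsta3 was thus lower in 8 of the 9 clusters with 20 or more cells of each library, and in 5 of them the interval excluded equality. Without cells of shared barcodes it was lower in 8 of 8 such clusters, and the interval excluded equality in 4, no longer in the Khdc1a and Isx cluster (-0.24, -0.72 to 0.20).

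For Gsta1 counts in both libraries allowed a ratio in 3 of the 9 clusters, higher in the knockout library in 2 and lower in 1. In the Khdc1a and Isx cluster it was at 4.70 and 16.4 CPM (log2 1.80, 0.85 to 2.63), from 13 UMIs in 3 of 31 knockout cells. In the Asprv1 and Spp1 cluster it was at 0.397 and 1.30 CPM (log2 1.71, -1.25 to 7.20), from 1 and 7 UMIs. In the Sprr1a and Clu cluster it was at 48.2 CPM in control cells and 18.9 CPM in knockout cells (log2 -1.35, -1.77 to -0.92). Without cells of shared barcodes it was at 47.9 and 12.0 CPM there, 3.98-fold lower. The Sprr1a and Clu cluster held 1.45% of control and 21.2% of knockout cells, and the colonocyte-like cluster 0.152% and 1.89%. With each control cluster weighted by its share of knockout cells, Gsta1 came to 23.7 CPM in control cells against 13.6 CPM in the knockout library, 1.74-fold lower. This value rests on few cells. The larger part comes from the Sprr1a and Clu cluster, with 65 Gsta1 UMIs in 8 of 38 control cells. Nearly all the rest comes from the 4 control cells of the colonocyte-like cluster, with 59 UMIs. Over the 9 clusters with 20 or more cells of each library the weighted values were 13.9 and 5.91 CPM, 2.36-fold lower. That control value comes almost wholly from the same 8 control cells of the Sprr1a and Clu cluster. The weighted values of Gsta3 were 36.7 and 20.7 CPM, 1.77-fold lower.

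**Figure D4:**
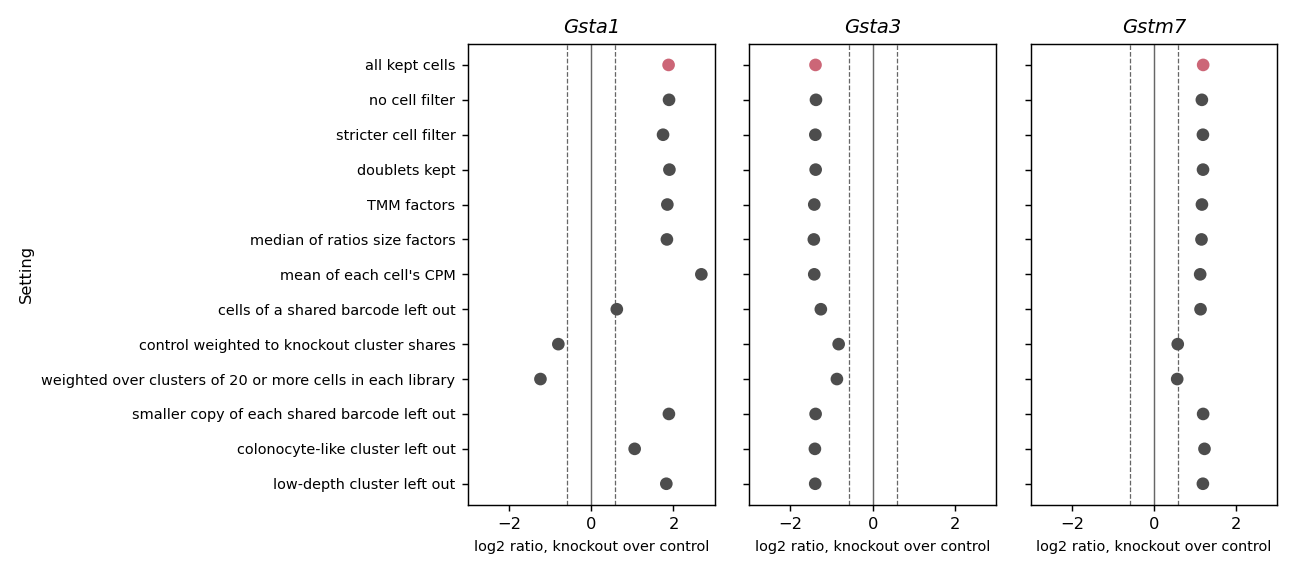
Log2 ratio of knockout over control for Gsta1, Gsta3 and Gstm7 (panels) under each setting (rows), with all kept cells in red and dashed lines at 1.5-fold. Gsta3 stays lower in every row, Gstm7 falls to about the dashed line where cluster shares are made equal, and Gsta1 crosses 0 there.

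The 3 mu class genes shared a pattern over clusters in both libraries. Over 7 clusters r was 0.93 for Gstm1 with Gstm5, 0.91 for Gstm1 with Gstm7 and 0.96 for Gstm5 with Gstm7 in the control, and 0.99, 0.94 and 0.94 in the knockout library. Gstm1 and Gstm5 were highest in the Pnliprp2 and Prss56 cluster, Gstm1 at 185 and 201 CPM and Gstm5 at 242 and 231 CPM in the control and the knockout library. Gstm7 was at 44.4 and 51.6 CPM there, and in the knockout library at 53.2 CPM in the Cxcl14 and Plat cluster, where the control had 36.3 CPM. The Sprr1a and Clu cluster was low for all 3 in the knockout library, with Gstm1 at 10.7, Gstm5 at 44.9 and Gstm7 at 3.05 CPM. The Khdc1a and Isx cluster was also low, with Gstm1 at 29.8 and Gstm7 at 1.99 CPM in the control. Gsta3 was highest in that control cluster, and its r with the mu class genes in the control was -0.67 for Gstm1, -0.58 for Gstm5 and -0.63 for Gstm7. In the knockout library these values were -0.37, -0.35 and -0.61.

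In cycling-like cells the mu class genes were all higher in the knockout library. Gstm7 was at 4.22 CPM in 477 control cells and 18.7 CPM in 129 knockout cells, 4.45-fold higher (log2 2.15, 1.66 to 2.65), and at 4.19 and 18.3 CPM without cells of shared barcodes. Gstm1 was at 26.4 and 53.1 CPM (log2 1.01, 0.77 to 1.25), and Gstm5 at 72.9 and 109 CPM (0.58, 0.42 to 0.74). Gsta4 was at 132 and 191 CPM (0.53, 0.41 to 0.65), while Gsto1 was at 430 and 285 CPM (-0.59, -0.68 to -0.51). In the Pnliprp2 and Prss56 cluster the 3 mu class ratios lay between -0.06 and 0.22 with intervals that include 0. The Khdc1a and Isx cluster, with 31 knockout cells, went the other way, with Gstm1 at 29.8 and 6.31 CPM (log2 -2.24, -3.87 to -1.01) and Gstm5 at 65.9 and 40.4 CPM (-0.71, -1.26 to -0.20). Gstm5 was also lower in the Sprr1a and Clu cluster (-0.45, -0.80 to -0.10). With each control cluster weighted by its share of knockout cells Gstm7 came to 17.5 and 26.1 CPM, 1.49-fold higher.

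Of the remaining members, Gsto1 is given first over clusters of 50 or more cells of a library. It was highest in the Asprv1 and Spp1 cluster of the control (749 CPM, and 555 CPM in the knockout library). In the knockout library the Sprr1a and Clu cluster was highest (594 CPM), and the Pnliprp2 and Prss56 cluster was low in both (206 CPM). Some smaller clusters were higher. The 38 control cells of the Sprr1a and Clu cluster were at 791 CPM, and 25 knockout cells led by Ccl5 and Sprr1a at 1226 CPM. Over the 7 control clusters r of Gsto1 was -0.55 with Gstm1 and 0.86 with Gsta3. Over the 7 knockout clusters these values were -0.32 and 0.46. With cluster weights Gsta4 changed sides, from a log2 ratio of 0.19 to -0.04. It was lowest in the cycling-like cells of the control (132 CPM). It reached 651 CPM in the 28 knockout colonocyte-like cells, 22 of them with a shared barcode, against 335 CPM in the 4 control cells. Mgst1 was at 7.59 CPM in those knockout cells, from 7 UMIs in 1 cell, against 74.8 CPM in the whole library. In the 4 control cells it was at 13.2 CPM. By the colonocyte marker sum, control Mgst1 went the other way, from 82.5 CPM under 1000 CPM to 109 CPM at 5000 CPM or more (6 cells). Gstp1 stayed within 2.82-fold over the 7 control and 2.00-fold over the 7 knockout clusters, lowest in the low-depth Lars2 and Hspa1b cluster in both (69.5 and 76.1 CPM).

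**Figure D5:**
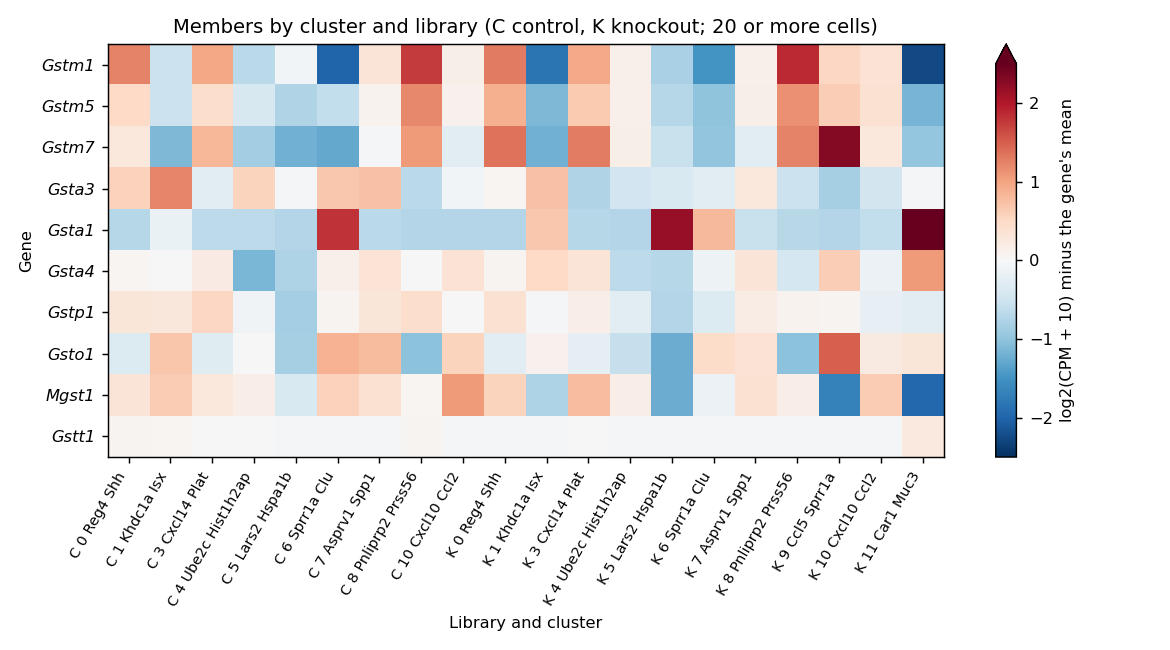
Log2(CPM + 10) of the 10 members minus each gene's mean, by library (C control, K knockout) and cluster of 20 or more cells, red above and blue below the mean, with values over 2.5 shown in the darkest red. The 3 mu class rows share their reds and blues. Gsta1 is darkest red in the knockout Car1 and Muc3 column. It is also red in the knockout Lars2 and Hspa1b and Khdc1a and Isx columns and in the Sprr1a and Clu columns of both libraries.

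Outside the 10 members, 9 of the 22 other transferase and related genes in the matrices were measured, with 1 higher, 1 lower and a median log2 ratio of -0.10. Over all 7910 measured genes 8.12% were higher and 10.7% lower, and the counts given below for other lists are to be read against those shares. The higher gene was Ptges, the prostaglandin E synthase of the microsomal transferase family, at 6.09 CPM in control cells and 12.5 CPM in knockout cells, and the lower gene was Gstt3. Ptges reached the minimum of 10 CPM only in the knockout library and Gstt3 only in the control library, the side where each was higher. The others were Mgst3 (112 and 129 CPM), Mgst2 (42.1 and 39.3), Gstp2 (37.7 and 33.4), Gstz1 (30.3 and 22.8), Gstcd (14.2 and 15.1), Gstm2 (12.4 and 16.1) and Gstp3 (10.7 and 7.21).

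Of 18 measured genes of glutathione synthesis, recycling and breakdown 1 was higher and 2 were lower, with a median log2 ratio of -0.08. The higher gene was Slc7a11, the cystine importer, at 29.1 and 46.8 CPM. The lower genes were Cth, which makes cysteine from cystathionine, at 51.0 and 19.5 CPM (log2 -1.39, -1.51 to -1.28), and Ggct, a gamma-glutamylcyclotransferase, at 20.2 CPM in control cells and 1.84-fold lower in knockout cells. Gclc and Gclm, the subunits of the rate-limiting ligase, were at 18.1 and 17.1 CPM and at 97.9 and 86.3 CPM, and the reductase Gsr at 154 and 146 CPM. Gss, the glutathione synthetase, was at 184 and 131 CPM and the amino acid carrier Slc1a5 at 132 and 101 CPM, while Chac1 (31.7 and 43.3), Chac2 (37.1 and 51.2) and the malic enzyme Me1 (12.6 and 17.7) stood on the higher side under 1.5-fold.

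Among peroxidases, peroxiredoxins and glutaredoxins 1 of 15 measured genes was higher and 0 were lower, with a median log2 ratio of -0.09. This was Prdx5, at 241 and 380 CPM, or a log2 ratio of 0.66, which was 0.27 without cells of shared barcodes. Prdx2 was at 502 and 716 CPM, Gpx1 at 652 and 706 CPM, Prdx1 at 1780 and 1906 CPM and the gut glutathione peroxidase Gpx2 at 551 and 518 CPM. Prdx4 (63.0 and 44.2 CPM), Glrx2 (65.1 and 50.8), Glrx5 (192 and 152) and Prdx6 (642 and 518) stood lowest in ratio.

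Of 23 measured NRF2 pathway genes 2 were higher and 2 lower, with a median log2 ratio of 0.04. Hmox1, the heme oxygenase, was at 39.2 and 64.2 CPM and Aldh3a1, an aldehyde dehydrogenase, at 5.67 and 12.6 CPM. Aldh3a1 reached the minimum in the knockout library alone. The carboxylesterase Ces2g was at 37.7 and 11.8 CPM and Aldh1a1, a retinaldehyde dehydrogenase, at 30.2 and 14.2 CPM. Nfe2l2, the gene of NRF2, was at 201 and 176 CPM, its inhibitor Keap1 at 38.4 and 31.3 CPM and the thioredoxin reductase Txnrd1 at 185 and 153 CPM. Nqo1, a classic target, was under the minimum at 3.48 and 4.26 CPM. Maff (156 and 229 CPM), Sqstm1 (240 and 320) and Cbr1 (115 and 90.6) stayed under 1.5-fold. Of 5 measured genes for the export of conjugates and mitochondrial glutathione uptake none was past 1.5-fold, with Abcc1 at 12.2 and 16.9 CPM, Abcc4 at 47.1 and 54.4, Abcc3 at 22.4 and 20.3 and Slc25a39 at 84.6 and 62.6 CPM.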

How the data were processed

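Organoid cells were profiled with the Chromium 3′ protocol (version 2 chemistry), per the labels' protocols. The deposited values are raw UMI counts. Per the file headers, the authors ran Cell Ranger 3.1.0. The genome was mm10, per the submitters' processing notes. The counts cover barcodes of 500 or more UMIs. GENCODE M21 held 31011 of the 31053 identifiers, and the annotation used for counting was not given in the sources used here.

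Cells were kept at 1000 genes, 2000 UMIs and at most 20% mitochondrial UMIs, and those with the highest Scrublet scores were removed, 0.8% per 1000 cells (58 control and 18 knockout cells). Counts were summed per library and scaled to CPM, with no pseudocount in ratios. CPM intervals are Poisson, ratio intervals conditional binomial and shares Clopper-Pearson. No ratio is given where a count is 0 or both are at most 3. For the shares and the median over all measured genes, a library count of 0 was taken as 3 UMIs. Leiden clustering (resolution 0.8, 2000 variable genes, 30 principal components, 15 neighbours, scanpy 1.11.5) used no glutathione transferase gene. A cluster was named when 3 or more markers of a class were 2-fold above other cells and 2 or more were among its 10 leading genes. The scripts were tested on simulated data.

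The members, lists, markers and settings were chosen with earlier results of these data known. Named genes are all members, every measured other transferase gene, up to 4 measured genes per list with the largest ratios in each direction, 9 fixed pathway genes, and the 6 genes most like Gsta1 and Gsta3. A gene that this rule names is not reported here. The 20-cell minimum, the colonocyte marker ranges, the windows of 50 bases, the motifs and the printed promoters were chosen after values were seen. Alternatives were other cell filters, doublets kept, trimmed mean factors (edgeR 4.0.16) and median of ratios factors, means of per-cell CPM, a 2-fold threshold, other minimum CPM, shared barcodes left out, weighted cluster shares and resolutions of 0.4 and 1.2.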

Additional observations from a re-analysis of the deposited data

How the results depend on the processing

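Gsta3 was lower in the knockout library under all 12 other settings that recompute the ratio (log2 -1.43 to -0.83) and Gstm7 higher (0.57 to 1.23), Gstm7 short of 1.5-fold in both weighted settings. Gsta1 ranged from -1.24 to 2.68 and changed direction only with each control cluster weighted by its share of knockout cells (-0.80) and with such weights over clusters of 20 or more cells (-1.24), the latter chosen after seeing the data. Both weighted values lean on the Sprr1a and Clu cluster, where 8 of 38 control cells had a Gsta1 UMI. The count of members higher was 2 and became 1 without shared barcodes and 1 without the colonocyte-like cluster (an added setting), 0 under both weighted settings, and 0 at a minimum of 50 CPM, where fewer members are tested. The count of members lower was 1 and became 2 under both weighted settings, by Gsta1, and 2 with no minimum, by Gstt1. The correlation of Gsta1 with Gsta3 over knockout clusters moved from 0.11 to -0.24 (5 clusters) at resolution 0.4 and to -0.28 (8 clusters) at 1.2. The cause was not tested. Trimmed mean and median of ratios factors moved the median of all genes by -0.03 and -0.04. Depth limits Gstt1, at 3 UMIs in the knockout library, and Gsta1 in the 4 control colonocyte-like cells. No paired analysis was possible because each group is 1 library and the record numbers mark no replicate; for the same reason none could be left out.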
